A study of Mus musculus with 56 samples.

Results

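The bacteria of the large intestinal contents (LI) were compared with those of the small intestinal contents (SI) in WT-ND mice, wild-type (WT) animals fed the normal diet (ND), which gave 6 LI and 6 SI libraries, 12 of the 56 libraries of the series. Libraries were chosen by their labels alone, and an LI and an SI library that bear the same number were treated as 1 mouse. The WT-ND mice were male C57BL/6J mice that were housed singly and ate a normal diet for a feeding period of 12 weeks, starting at an age of 10 weeks. Before this period, the mice of all groups ate standard chow and then the normal diet. SI contents came from a 4 cm length just beyond the midpoint between the pylorus and the cecum, and LI contents from a 4 cm length just beyond the midpoint between the cecum and the anus. The mucosa and the cecum were not sampled, so all values describe the lumen of these segments. The other groups, used here only to set the site difference of WT-ND mice against theirs, were WT mice on a Western diet (WT-WD, 6 mice) and mice without MC4R, a brain receptor that restrains feeding, on the normal (KO-ND, 8 mice) or the Western diet (KO-WD, 8 mice). They were fed from the same age for the same time. The WT mice were purchased, whereas the mice without MC4R were generated as in earlier work. Genotype and breeding origin therefore cannot be told apart, and the authors do not fully exclude an effect of origin or of differences at the start.

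Food passes quickly through the small intestine, where acid, bile and some oxygen favour fast fermenters of simple sugars such as lactobacilli. Food residue stays much longer in the large intestine, where oxygen is scarce and strict anaerobes of the orders Bacteroidales and Clostridiales break down fibre, mucus and host glycans to short-chain fatty acids. The gene for 16S ribosomal RNA, which all bacteria carry, was amplified over its V3-V4 region, and each distinct sequence is counted as an amplicon sequence variant (ASV). Names follow the Greengenes reference, in which S24-7 is the family now called Muribaculaceae, square brackets mark a disputed name, and "unnamed" marks ASVs that reached the named family or order but no genus. The authors caution that 16S sequences may not separate close relatives, with Allobaculum and Faecalibaculum as their example, so the name Allobaculum is not certain.

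LI libraries held 27237 to 31702 counts each (median 30336.5) and SI libraries 29997 to 30726 (median 30196), so the depth of the sites overlapped. Of the 938 ASVs of the table, 366 had a count in a WT-ND library. A taxon at 0 in all 6 libraries of a site is limited to 0.00166% of the counts in LI and 0.00165% in SI, which is 3 counts out of all counts of the site, and such limits cover counting error only. Genera listed as skin, dust, feed or reagent bacteria were represented by Staphylococcus alone, with 0 to 0.0406% of the counts in LI and 0 to 0.171% in SI, and no ASV was named as a plant plastid or mitochondrion. The list did not hold Lactococcus or other lactic acid bacteria, and whether their DNA came with the feed was not tested. All values are shares of a library, so a share that is lower because a taxon shrank and a share that is lower because others grew cannot be told apart.

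The LI community was richer and more even than the SI community of the same mouse, in all 6 mice. Richness, the number of ASVs found in a random draw of 27237 counts, was 115 to 145 in LI (median 131) and 28 to 65 in SI (median 60.0). Every LI library had more ASVs than any SI library, and mice 1 and 4 had the poorest SI libraries, with 28 and 33 ASVs. The means were 130 ± 13.5 ASVs in LI and 51.3 ± 16.4 in SI (SD, n = 6 each), a difference of 79.0 ± 20.3 (SD over mice). The exact two-sided sign-flip test over the 6 mice gave p = 0.03125, the smallest that 6 pairs allow.

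The Shannon index, higher the more ASVs there are and the more equal their shares, was 4.10 ± 0.569 bits in LI and 2.67 ± 0.332 bits in SI (SD, n = 6 each, exact sign-flip p = 0.03125). Here, too, the libraries of the sites did not overlap, with 3.42 to 4.74 bits in LI and 2.29 to 3.12 bits in SI. Pielou's evenness, which is 1 when all ASVs have the same share, was 0.583 ± 0.0755 in LI and 0.480 ± 0.0780 in SI (n = 6 each, exact sign-flip p = 0.03125), and its libraries did overlap. It took 22 to 47 ASVs to make up 90% of the counts in LI (mean 32.5), against 5 to 11 in SI (mean 7.67). The 3 largest ASVs of a library held 55.4 ± 11.1% of the counts in LI and 77.0 ± 8.56% in SI. The same ASV, ASV_001 of the genus Allobaculum, was the largest in all 12 libraries.

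**Figure D1:**
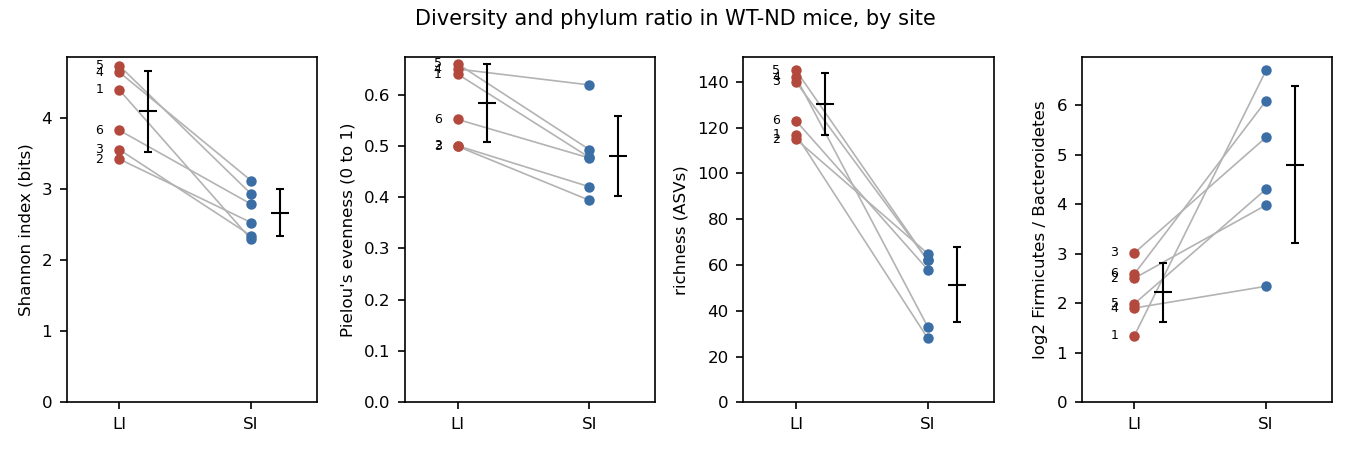
Shannon index (bits), Pielou's evenness, richness (ASVs in 27237 counts) and the log2 ratio of Firmicutes to Bacteroidetes in LI and SI contents of 6 WT-ND mice; grey lines join the sites of a mouse, digits give its number, and black bars are the mean ± SD. Richness was 115 to 145 in LI and 28 to 65 in SI, without overlap, and the phylum ratio was lower in LI in every mouse.

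Most of the ASVs of the LI were not found in the SI of the same mouse, but those that were shared held most of the counts. Of the ASVs of an LI library, 27.3 ± 8.01% were also found in the SI of that mouse, and of the ASVs of an SI library, 70.1 ± 8.17% were found in its LI (SD, n = 6). The shared ASVs held 83.3 ± 6.37% of the LI counts and 96.8 ± 3.18% of the SI counts. Mouse 4 shared the smallest part of its LI ASVs, 16.2%, and mouse 2 the largest, 35.7%. A mouse had 74 to 119 ASVs in LI only and 5 to 24 in SI only.

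Over all 6 mice, 228 ASVs were found in LI only, 28 in SI only and 110 in both sites. Oscillospira, a genus of Ruminococcaceae known mainly from its sequence, had 36 of its 40 ASVs in LI only and the other 4 in both sites. Unnamed Lachnospiraceae had 52 of 71 ASVs in LI only, unnamed Clostridiales 46 of 65, and S24-7 12 of 30. Over all ASVs with a count, 228 of 366 were found in LI only, a larger part than in S24-7. S24-7 had 16 of its ASVs in both sites. Just 7 ASVs were found in all 12 libraries, and 8 were found in every LI library and no SI library.

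**Figure D2:**
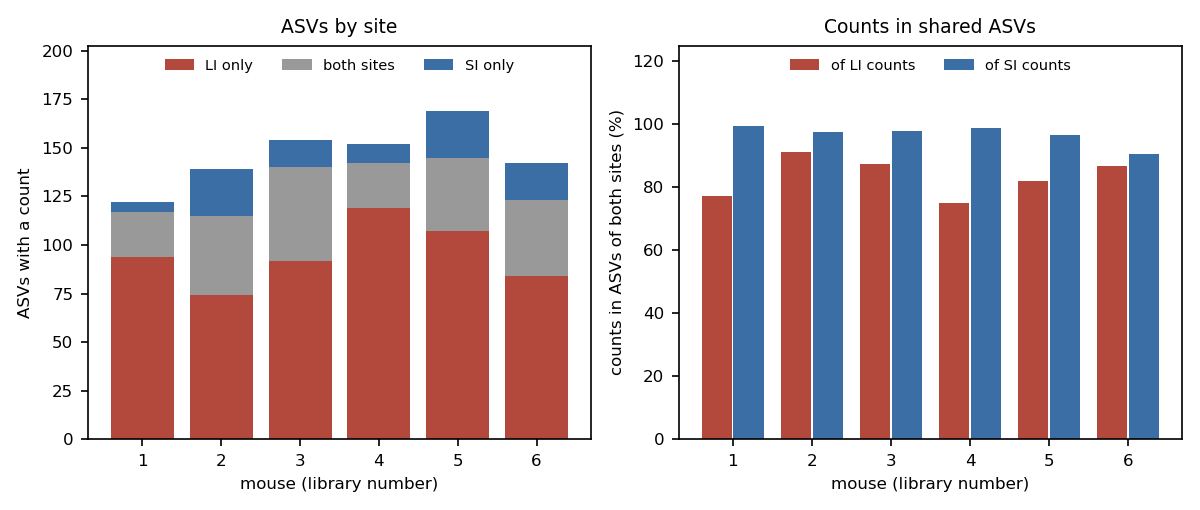
Left, the number of ASVs with a count in LI only, in both sites or in SI only of each WT-ND mouse; right, the percent of LI and SI counts that fell in the ASVs found in both sites of that mouse. ASVs of LI only numbered 74 to 119 a mouse, while the shared ASVs held 74.8% to 91.3% of LI counts and 90.7% to 99.5% of SI counts.

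Site accounted for 21.5% of the sum of squared Bray–Curtis distances, which weigh abundant ASVs, and for 26.2% of the Jaccard distances, which look only at presence (permutational analysis of variance with the sites swapped within mice, exact p = 0.03125 for each, the smallest possible). By presence, the nearest library was of the same site for 12 of 12 libraries. By abundance, it was of the same site for only 5 of 12. The mean Bray–Curtis distance was 0.354 between LI and SI of the same mouse (0.197 in mouse 2 to 0.506 in mouse 1) and 0.444 between LI and SI of different mice. By abundance, the SI library nearest to an LI library was that of its own mouse for 4 of 6 mice. The 6 measures of diversity and composition tested, the ratio of Firmicutes to Bacteroidetes included, all had p = 0.03125 (exact), which Benjamini-Hochberg adjustment over the 6 leaves as it is.

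Changes of single taxa were tested in edgeR by quasi-likelihood, with each mouse as a block. The log2 fold changes are LI over SI with their standard error (SE), and p-values were adjusted by the Benjamini-Hochberg method within each rank. A change was called at an adjusted p under 0.05. Where most SI libraries were at 0, the fitted fold change can be larger than the ratio of the mean shares.

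Among the 4 phyla tested, Bacteroidetes rose in LI, 25% of the phyla, and none was called lower (0.0%, with 1 at an unadjusted p under 0.05). Bacteroidetes held 8.85% to 25% of the counts in LI (median 15.9%) and 0.783% to 13.4% in SI (median 2.83%). Mouse 4 had the highest SI share, above the LI shares of mice 2 and 3, but the LI share was the higher in 6 of 6 mice. The log2 fold change was 2.40 ± 0.62 (SE, edgeR adjusted p = 0.0264). Leaving out mouse 3, 5 or 6 ended the call, with adjusted p of 0.0616, 0.0792 and 0.0839.

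The other phyla did not pass. Firmicutes, the Gram-positive phylum that includes Clostridia and lactobacilli, held 71.7 ± 6.55% of the counts in LI and 79.0 ± 10.4% in SI (adjusted p = 0.119). Actinobacteria held 11.5 ± 6.22% in LI and 16.4 ± 9.25% in SI, and the LI share was the lower in 5 of 6 mice (adjusted p = 0.0563). Verrucomicrobia, present here as the mucin degrader Akkermansia alone, ranged from 0 to 2.27% in LI and from 0 to 0.514% in SI (adjusted p = 0.119). Firmicutes were 2.55 to 8.11 times as abundant as Bacteroidetes in LI, against 5.09 to 104.9 times in SI. The log2 ratio was lower in LI by 2.57 ± 1.70 on average (SD, 6 of 6 mice, exact sign-flip p = 0.03125).

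**Figure D3:**
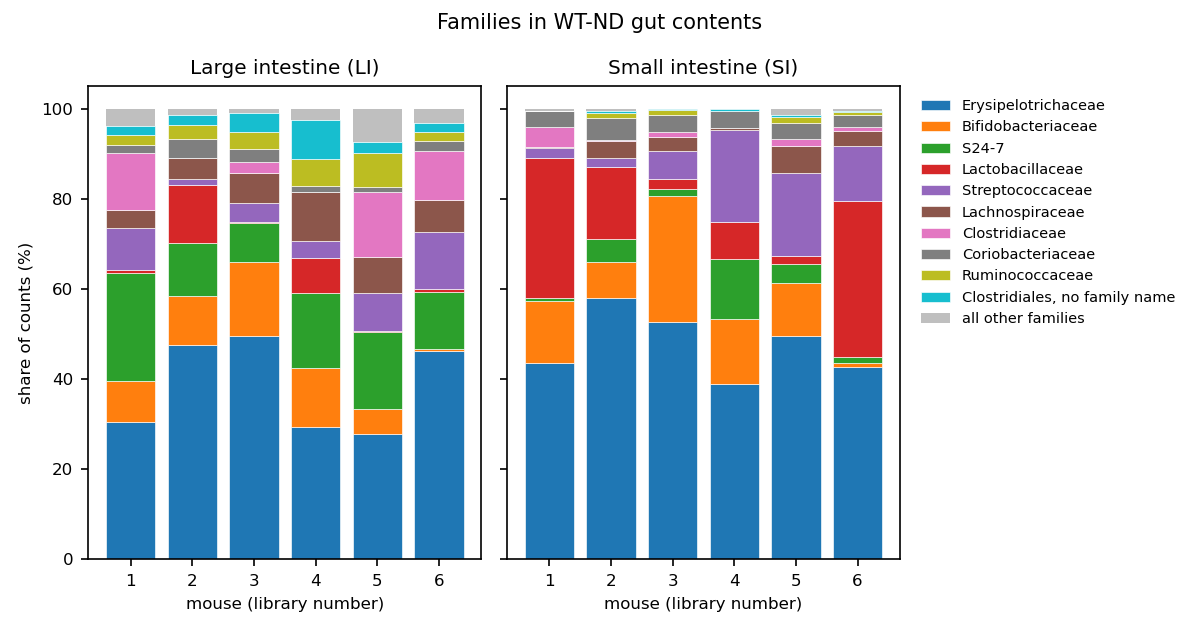
Share of counts (%) of the 10 families that averaged 1% or more in LI or SI, for each of 6 WT-ND mice, LI on the left and SI on the right. Erysipelotrichaceae were the largest family in all 12 libraries, S24-7 took up more of each LI library than of the SI library of the same mouse, and Lactobacillaceae took up less.

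At the rank of class, 2 of 7 were called higher in LI (28.6%) and 1 lower (14.3%). Clostridia, mostly strict anaerobes, held 22.2 ± 8.10% of the counts in LI and 5.27 ± 2.78% in SI, with a log2 fold change of 2.19 ± 0.50 (SE, edgeR adjusted p = 0.00781) and no overlap of the libraries. Bacilli, the class of the lactic acid bacteria, held 11.1 ± 3.47% in LI and 26.1 ± 13.4% in SI, with a log2 fold change of -1.14 ± 0.23 (adjusted p = 0.00707), and were lower in 6 of 6 mice. Among 9 orders, Clostridiales and Bacteroidales were called higher (22.2%), and Lactobacillales and Coriobacteriales lower (22.2%). With DESeq2 all 4 of these calls were lost (adjusted p 0.0656 to 0.216). Coriobacteriales averaged 2.23% in LI and 3.70% in SI, and this call had an adjusted p of 0.0421, which rose to between 0.0728 and 0.239 without mouse 1, 3, 4 or 5, to 0.279 without the block, to 0.0971 without a filter and to 0.0631 with the filter at 0.1%.

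Of 31 genera tested, 12 were called higher in LI (38.7%) and 1 lower (3.23%), and the median log2 fold change of all 31 was 2.55. Of the 48 genera with counts, 17 did not pass the filter, a mean share of 0.01% and counts in at least 4 of the 12 libraries. A genus without a count in SI, such as rc4-4 or Anaerotruncus, passes this filter through its LI libraries alone and can only come out higher. Those called higher all belonged to the orders Bacteroidales and Clostridiales, and the single genus called lower was Lactobacillus. For 9 of the 31 genera (29.0%) the LI and SI libraries did not overlap. The balance of the calls depended on the scaling of the counts. TMM factors gave 11 higher and 1 lower, DESeq2 gave 11 higher and 4 lower, and centred log ratios, which set each genus against the average genus of its library, gave 8 higher and 9 lower. Relative to library totals, these scalings moved the median genus by -0.35, -1.0 and -2.50 on the log2 scale, in that order. Allobaculum, Bifidobacterium and unnamed Coriobacteriaceae were the other genera called lower with DESeq2, and centred log ratios added Lactococcus, Clostridium of the Clostridiaceae, Adlercreutzia, Dorea and Staphylococcus. Lactobacillus was called lower under each of them, and Oscillospira, unnamed Ruminococcaceae, Anaerotruncus, rc4-4, Coprococcus, Bacteroides, Parabacteroides and unnamed Rikenellaceae were called higher under each.

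**Figure D4:**
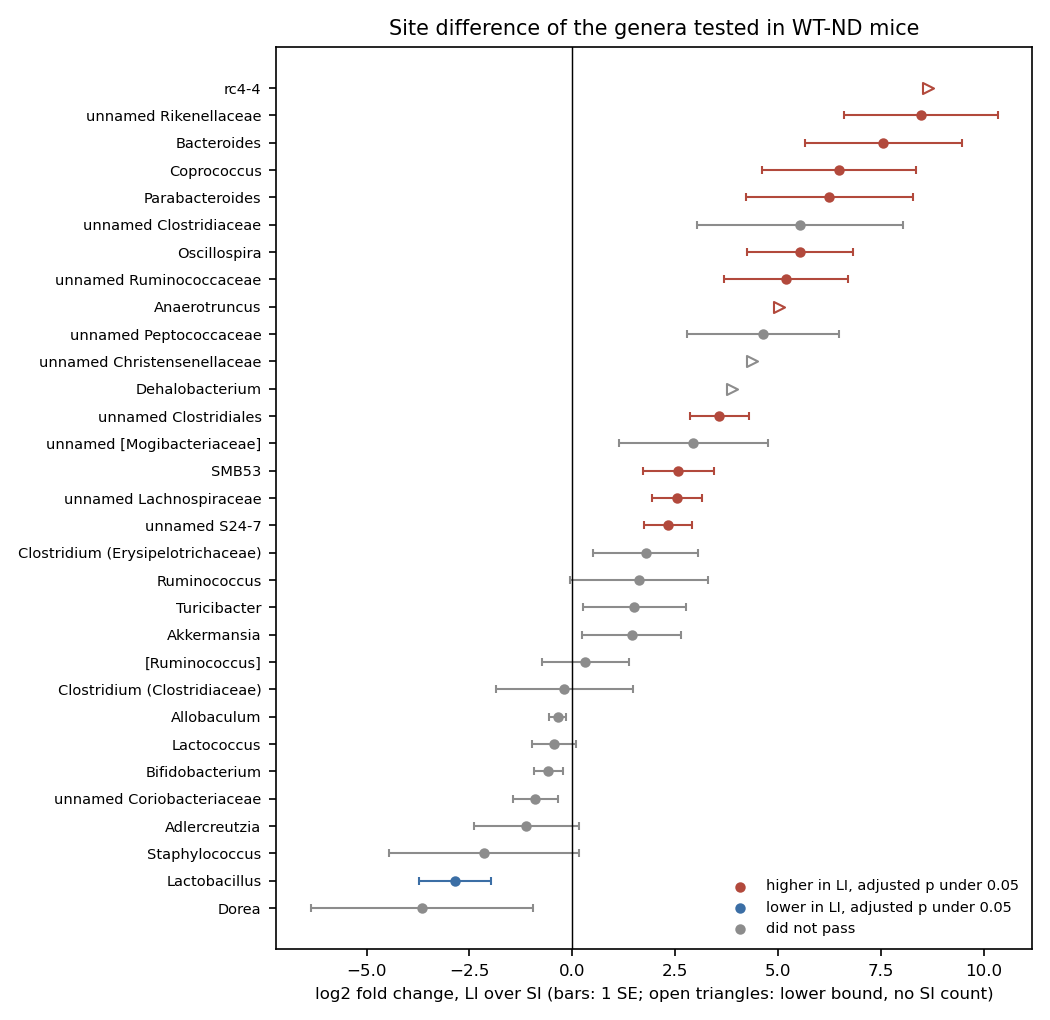
Log2 fold change, LI over SI, of the 31 genera tested in 6 WT-ND mice (edgeR with the mouse as a block); bars are 1 SE, and open triangles are lower bounds for genera without a count in SI. Red marks the 12 genera higher in LI, blue Lactobacillus, the 1 lower, and grey those that did not pass.

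Bacteroidales, Gram-negative anaerobes that digest complex glycans, had 5 genera with counts, of which 4 were tested. All 4 were called higher in LI, against 12 of 31 (38.7%) over all genera tested. Their median log2 fold change was 6.90, against 2.55 over all genera tested, and the largest changes were those of rare genera with few SI counts. The order as a whole had a log2 fold change of 2.40 ± 0.56 (SE). Together the genera of the order held 8.85% to 25% of the counts in LI and 0.783% to 13.4% in SI. S24-7, a family of mouse gut bacteria that break down plant and host polysaccharides, made up nearly all of this. Its share in mice 1 to 6 was 23.9%, 11.7%, 8.50%, 16.7%, 17% and 12.8% in LI, against 0.783%, 5.07%, 1.59%, 13.4%, 4.02% and 1.39% in SI. Every mouse had more in LI, and mouse 4 had the smallest gap. The log2 fold change was 2.32 ± 0.58 (SE, edgeR adjusted p = 0.0086), the adjusted p was 0.0641 without mouse 6 and 0.0867 with DESeq2, and the change was 0.06 on the scale of centred log ratios (adjusted p = 0.948).

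Unnamed Rikenellaceae, a family that includes the fermenter Alistipes, held 0.246% to 0.879% of the counts in LI (median 0.438%), and in SI it had counts in mouse 2 alone, at 0.0798%. The log2 fold change was 8.47 ± 1.87 (SE, edgeR adjusted p = 0.00785). Bacteroides, which carries large sets of polysaccharide-digesting enzymes, held 0.0599% to 0.628% in LI (median 0.182%) and had counts in the SI of mouse 3 alone, at 0.0131% (log2 fold change 7.56 ± 1.91, adjusted p = 0.0086). Its ASVs were named Bacteroides ovatus (0.162% of LI counts on average) and Bacteroides caccae (0.0679%). Parabacteroides, a close relative, held 0.0347% to 0.494% in LI and at most 0.0196% in SI (log2 fold change 6.25 ± 2.03, adjusted p = 0.0274), and this call was lost without mouse 2 or 6 (adjusted p = 0.0846 and 0.0806).

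Among Lachnospiraceae, a family with many butyrate producers, 5 genera had counts, 4 were tested, 2 were called higher and none lower. Over all genera tested, 12 of 31 (38.7%) were called higher. The median log2 fold change of the 4 was 1.43, against 2.55 over all genera tested. Unnamed Lachnospiraceae held 3.01% to 8.69% of the counts in LI (median 4.95%) and 0.323% to 1.56% in SI (median 1.13%). The lowest LI share was above the highest SI share. The log2 fold change was 2.55 ± 0.61 (SE, edgeR adjusted p = 0.00785), against 0.29 on the scale of centred log ratios (adjusted p = 0.683). Coprococcus, which makes butyrate, held 0.0766% to 0.510% in LI and had counts in 2 SI libraries, at most 0.0423% (log2 fold change 6.48 ± 1.87, adjusted p = 0.0165). [Ruminococcus], whose named ASVs were all Ruminococcus gnavus, a mucin degrader, did not pass, with 1.26 ± 0.429% in LI and 1.82 ± 1.65% in SI (n = 6 each, edgeR adjusted p = 0.798).

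Among Ruminococcaceae, another family of fibre-degrading and butyrate-making anaerobes, 5 genera had counts, 4 were tested and 3 were called higher. Over all genera tested, 12 of 31 (38.7%) were called higher. The median log2 fold change of the 4 was 5.36, or 5.11 with the genus absent from SI at its bound. Oscillospira held 1.41%, 1.71%, 1.35%, 3.49%, 2.86% and 0.834% of the LI counts of mice 1 to 6, against 0.0167%, 0.136%, 0.0392%, 0, 0.0358% and 0.113% of their SI counts. The lowest LI share, in mouse 6, was far above the highest SI share, in mouse 2. Oscillospira had a log2 fold change of 5.53 ± 1.29 (SE, edgeR adjusted p = 0.00785). Unnamed Ruminococcaceae held 0.228% to 3.29% in LI (median 0.674%) and 0 to 0.256% in SI (median 0.0862%), with a log2 fold change of 5.19 ± 1.5 (adjusted p = 0.0165), and this call was lost without mouse 6 (adjusted p = 0.0641) and without the block (adjusted p = 0.112). Anaerotruncus, found in every LI library at 0.0191% to 0.106% and in no SI library, was at least 32.6-fold higher in LI (adjusted p = 0.0323), a call lost without mouse 2 or 6 (adjusted p = 0.0838 and 0.0806) and without a filter (0.0819). Ruminococcus itself averaged 0.977% in LI and 0.549% in SI and did not pass (adjusted p = 0.424).

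Clostridiales that reached no family name held 2.09% to 8.73% of the counts in LI (median 2.36%) and 0.0667% to 0.532% in SI (median 0.340%). Mouse 4 had the highest LI share, and no SI library came near the LI range. For unnamed Clostridiales the log2 fold change was 3.57 ± 0.72 (SE, edgeR adjusted p = 0.00785), and 1.26 on the scale of centred log ratios (adjusted p = 0.0855). Of the minor families of the order, 5 genera were tested, with a median log2 fold change of 5.55, or 4.38 with the genera absent from SI at their bounds. Of these 5, 1 was called higher, a smaller share than the 12 of 31 (38.7%) over all genera tested. The genus called was rc4-4 of the Peptococcaceae, known only by its sequence. It held 0.721%, 0.137%, 0.448%, 0.830%, 1.30% and 0.583% of the LI counts of mice 1 to 6 and had no count in SI. Set against 3 counts in the pooled SI total, it was at least 399.7-fold higher in LI (edgeR adjusted p = 0.00785). Dehalobacterium and unnamed Christensenellaceae also had counts in LI alone, in 4 mice each, and did not pass (adjusted p = 0.0724 and 0.0616).

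Of Clostridiaceae, Peptostreptococcaceae and Turicibacter, 5 genera had counts, 4 were tested and 1 was called higher. That is a smaller share than the 12 of 31 (38.7%) over all genera tested. The median log2 fold change of the 4 was 2.04. SMB53, a genus of Clostridiaceae, held 2.02%, 0, 2.48%, 0, 11.8% and 8.09% of the LI counts of mice 1 to 6, against 0.733%, 0, 0.785%, 0, 0.628% and 0.692% of their SI counts. Mice 2 and 4 lacked it in both sites, and the other 4 had more in LI. Its log2 fold change was 2.58 ± 0.86 (SE, edgeR adjusted p = 0.0323), but -0.46 on the scale of centred log ratios (adjusted p = 0.669), and the call was lost without mouse 3, 5 or 6 (adjusted p 0.0542 to 0.206), without the block (adjusted p = 0.248), with TMM factors (0.0718), with DESeq2 (0.252), without a filter (0.0615) and in the exact paired test (unadjusted p = 0.125). Turicibacter, a genus common in the mouse gut, had counts in mice 1, 5 and 6 in both sites, with 0.407% to 2.16% in LI and 0.0732% to 0.797% in SI of these mice, and did not pass (adjusted p = 0.325). Clostridium of the Clostridiaceae averaged 2.19% in LI and 0.736% in SI (adjusted p = 0.910), and was highest in both sites of mouse 1.

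**Figure D5:**
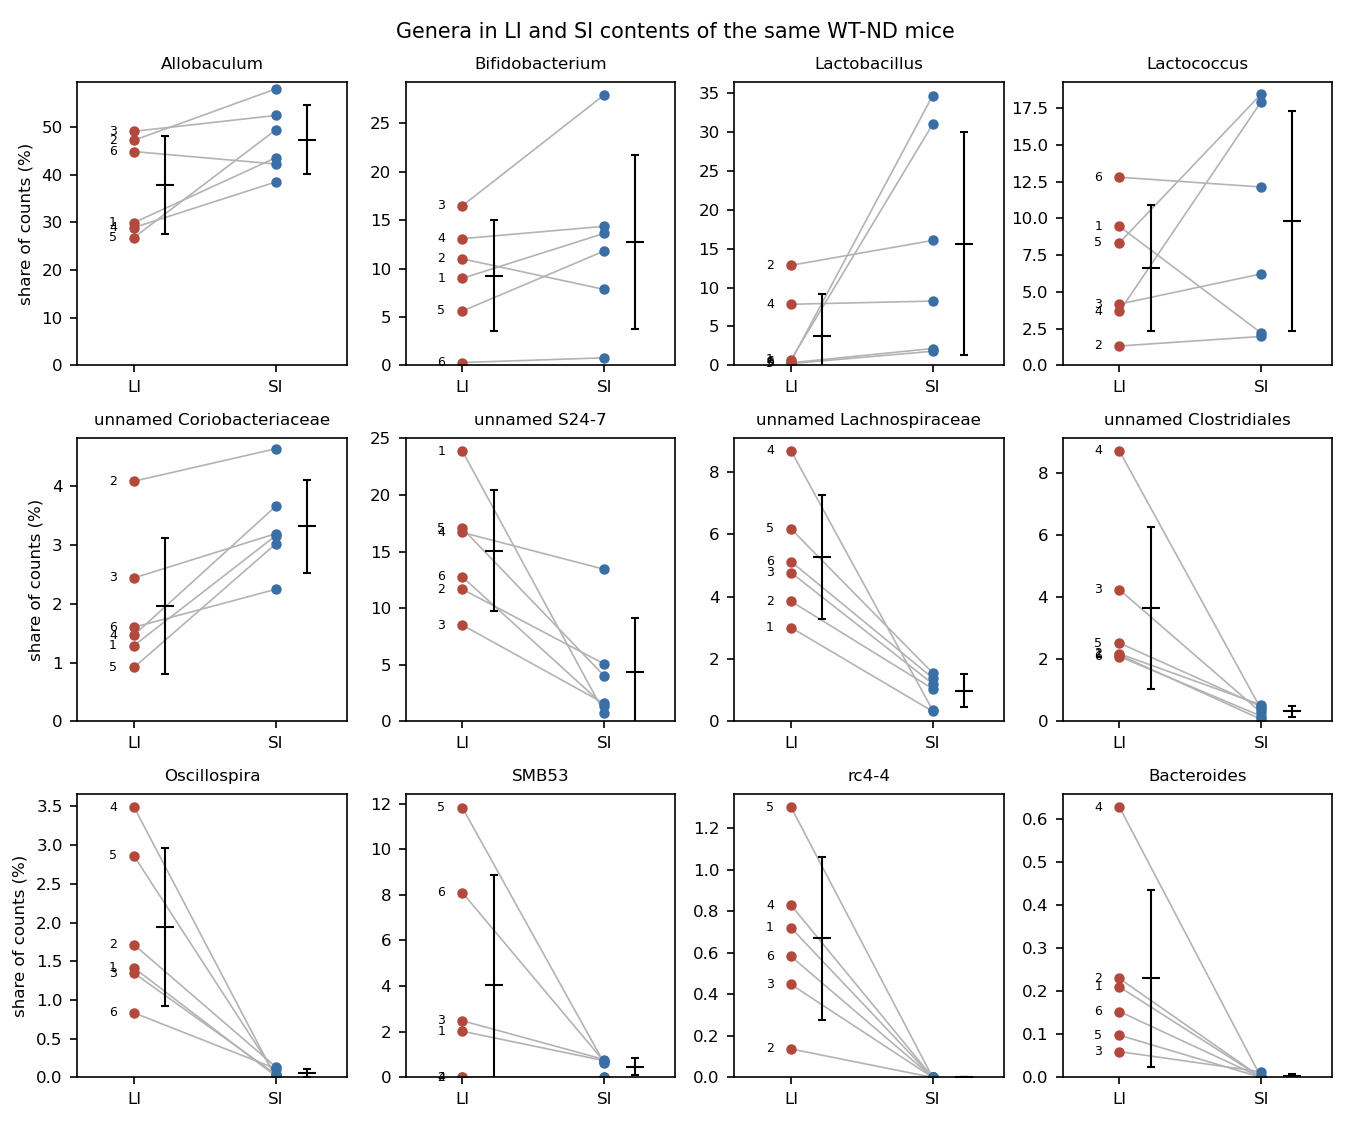
Share of counts (%) of 12 genera in LI and SI contents of 6 WT-ND mice; each panel has its own axis from 0, grey lines join the sites of a mouse, digits give its number, and black bars are the mean ± SD, cut off at 0. Lactobacillus and unnamed Coriobacteriaceae were lower in LI in every mouse, the Bacteroidales and Clostridiales genera other than SMB53 were higher in every mouse, and Lactococcus went both ways.

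Of the lactic acid bacteria, which ferment sugars to lactate and tolerate acid, 4 of the 8 listed genera had counts, 2 were tested and 1 was called lower in LI. Over all genera tested, 1 of 31 (3.23%) was called lower. Together the lactic acid bacteria held 4.51% to 14.2% of the counts in LI (median 10.9%) and 8.40% to 46.8% in SI (median 24.4%), and less in LI in 6 of 6 mice. Lactobacillus, which lines the forestomach of mice and is seeded from there into the gut, held 0.727%, 12.9%, 0.341%, 7.85%, 0.240% and 0.544% of the LI counts of mice 1 to 6, against 31.0%, 16.0%, 2.17%, 8.26%, 1.82% and 34.7% of their SI counts. The share was lower in LI in every mouse, by the most in mice 1 and 6 and by little in mice 2 and 4, and the ranges overlapped. Lactobacillus had a log2 fold change of -2.86 ± 0.87 (SE, edgeR adjusted p = 0.0211). The call was lost without mouse 6 (adjusted p = 0.0828) and without the block (log2 fold change -2.06, adjusted p = 0.175).

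Lactococcus, a genus best known from milk, did not pass. It held 9.46%, 1.32%, 4.17%, 3.67%, 8.34% and 12.8% of the LI counts of mice 1 to 6, against 2.21%, 1.97%, 6.23%, 17.9%, 18.5% and 12.1% of their SI counts. It was higher in LI in mice 1 and 6 and lower in the others (log2 fold change -0.45 ± 0.54 SE, edgeR adjusted p = 0.452). Streptococcus was found in mouse 4 alone, with 0.0367% of the counts in LI and 2.28% in SI, and Enterococcus in 1 SI library and no LI library, with an SI mean of 0.00998%.

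The largest genus of both sites was not called. This was Allobaculum, a sugar fermenter of the Erysipelotrichaceae, which held 26.8% to 49.1% of the counts in LI (median 37.4%) and 38.5% to 58.0% in SI (median 46.5%). It was lower in LI in 5 of 6 mice, and mouse 6 was the exception. Allobaculum had a log2 fold change of -0.36 ± 0.20 (SE, edgeR adjusted p = 0.169), but it was called lower in LI with DESeq2 (-1.36, adjusted p = 0.00461) and with centred log ratios (-2.65, adjusted p = 0.00711). Of the 2 genera of Erysipelotrichaceae tested, none was called, against 12 of 31 higher (38.7%) and 1 lower (3.23%) over all genera tested. The median log2 fold change of the 2 was 0.72. The other was a Clostridium placed in this family, with an ASV named cocleatum, which averaged 0.619% in LI and 0.225% in SI (adjusted p = 0.262).

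Bifidobacterium, which ferments sugars to acetate and lactate, was almost wholly Bifidobacterium pseudolongum. It held 9%, 11%, 16.5%, 13.1%, 5.62% and 0.30% of the LI counts of mice 1 to 6, against 13.6%, 7.85%, 27.9%, 14.4%, 11.8% and 0.785% of their SI counts. Mouse 3 was the highest and mouse 6 the lowest in both sites, and mouse 2 alone had more in LI (log2 fold change -0.58 ± 0.35 SE, edgeR adjusted p = 0.193). Unnamed Coriobacteriaceae held 1.97 ± 1.15% in LI and 3.32 ± 0.792% in SI (SD, n = 6 each). The share was lower in LI in 6 of 6 mice, and the change did not pass (log2 fold change -0.90 ± 0.54 SE, edgeR adjusted p = 0.193). Bifidobacterium and unnamed Coriobacteriaceae were both called lower in LI with DESeq2 (adjusted p = 0.00299 and 0.00109) and with centred log ratios (adjusted p = 0.00655 and 0.00535). Adlercreutzia, a relative that turns soy isoflavones into equol, averaged 0.266% in LI and 0.382% in SI (adjusted p = 0.442). None of the 3 genera of this list was called, against 12 of 31 higher (38.7%) and 1 lower (3.23%) over all genera tested. The median log2 fold change of the 3 was -0.90.

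Of the mucus-layer bacteria, Akkermansia, a mucin degrader, was tested and did not pass. It held 0, 0.297%, 0.0126%, 0.0147%, 2.27% and 0.668% of the LI counts of mice 1 to 6, against 0, 0.273%, 0.0163%, 0, 0.514% and 0.146% of their SI counts (log2 fold change 1.44 ± 1.21 SE, edgeR adjusted p = 0.325). Mucispirillum, a spiral bacterium of the mucus, had counts in the LI of mice 1, 2 and 4 (0.517%, 0.0128% and 0.147%) and in no SI library, and did not pass the filter, which asks for counts in 4 libraries. In the fit of all 56 libraries, where counts in the other groups carried it past the filter, its WT-ND site difference had an edgeR adjusted p of 0.0156. That fit also called unnamed Christensenellaceae (0.0270), unnamed Clostridiaceae (0.0184) and Roseburia (0.0487, counts in 2 LI libraries) higher in LI of WT-ND mice. None of these genera was called in the fit of the 12 libraries, and Mucispirillum and Roseburia were not tested in it. No genus of the sulfate-reducing Desulfovibrionaceae had a count in the 12 libraries.

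Of 20 families tested, 6 were called higher in LI (30.0%) and none lower (0.0%, with 1 at an unadjusted p under 0.05). Those higher were S24-7, Rikenellaceae, Porphyromonadaceae, Bacteroidaceae, Peptococcaceae and Clostridiales without a family name. The call of S24-7 at this rank was lost with TMM factors and DESeq2 (adjusted p = 0.0648 each), with centred log ratios (0.817) and without mouse 3 or 6 (0.0626 and 0.0828). That of Porphyromonadaceae was lost with TMM factors (0.0521) and without mouse 1, 2 or 6 (0.0540 to 0.0828), that of Bacteroidaceae without mouse 3 (0.0611), and that of Clostridiales without a family name with centred log ratios (0.0857). Lachnospiraceae as a whole held 6.85 ± 2.45% in LI and 2.87 ± 2.17% in SI, higher in LI in 6 of 6 mice, but did not pass (adjusted p = 0.0931), and its log2 fold change was 1.68 ± 0.70 here and -0.39 on the scale of centred log ratios. Ruminococcaceae held 4.10 ± 2.21% in LI and 0.710 ± 0.583% in SI with no overlap (adjusted p = 0.0931). Clostridiaceae averaged 6.76% in LI and 1.33% in SI (log2 fold change 1.57 ± 1.23, adjusted p = 0.267, and -1.40 on the scale of centred log ratios). Lactobacillaceae, with the same counts as Lactobacillus, had an adjusted p of 0.0514 among families, just outside the threshold. Erysipelotrichaceae averaged 38.5% in LI and 47.6% in SI, and Bifidobacteriaceae 9.26% and 12.7% (edgeR adjusted p = 0.169 each). Streptococcaceae averaged 6.63% in LI and 10.2% in SI (0.436), and Coriobacteriaceae 2.23% and 3.70% (0.136). These 5 families were all called lower in LI with DESeq2 and with centred log ratios.

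At the rank of ASVs, 106 were tested, 36 were called higher in LI (34.0%) and 2 lower (1.89%), and the median log2 fold change of all 106 was 3.98. The other 260 did not pass the filter. An ASV found in 1 site alone passes it only through that site, so its direction is fixed. Over all ASVs with a count, 228 were found in LI only and 28 in SI only, so the balance of the calls is not independent of this. Of the 36 ASVs, 30 had no count in SI and 14 were found in all 6 LI libraries. They were mostly rare, with a median mean share of 0.0827% in LI, and together they held 9.27% of the LI counts and 1.17% of the SI counts. Of the ASVs tested, 7 of 10 of Oscillospira, 7 of 14 unnamed Clostridiales, 7 of 21 unnamed Lachnospiraceae, 4 of 5 unnamed Ruminococcaceae and 3 of 16 of S24-7 were called higher. No ASV was called by edgeR once mouse 3 or mouse 6 was left out (with 37 and 38 higher and 2 and 2 lower at an unadjusted p under 0.05), and 4 higher and 1 lower were called without mouse 1.

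Among ASVs called higher in LI, those with the largest fitted changes were ASV_067 of S24-7, ASV_024, the sole ASV of rc4-4, ASV_051, the sole ASV of Rikenellaceae, ASV_154 of Lachnospiraceae and ASV_081 of Coprococcus. ASV_067 held 0.371% to 1.42% of the counts in LI (median 0.713%) and had no count in SI, at least 456-fold higher in LI (edgeR adjusted p = 0.0203). ASV_154 was at 0.0734% to 0.257% in LI, and ASV_081 at 0 to 0.242%, both without a count in SI, which makes them at least 71.2-fold and 76.5-fold higher in LI (adjusted p = 0.0346 and 0.0438).

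Within S24-7, ASVs differed from each other. ASV_067 was confined to LI libraries, whereas the 3 most abundant ASVs were found in both sites. ASV_019 averaged 2.85% in LI and 0.978% in SI and was higher in LI in 6 of 6 mice (edgeR adjusted p = 0.0503, just outside the threshold). ASV_025 averaged 2.74% in LI and 0.967% in SI, was higher in LI in 5 of 6 mice, all but mouse 4, and was called (log2 fold change 2.92 ± 0.94, adjusted p = 0.0366). ASV_031 averaged 1.97% in LI and 0.807% in SI, and in SI it was at 4.40% in mouse 4 and at most 0.269% in the others (adjusted p = 0.109). Of the 16 S24-7 ASVs tested, 3 were called higher and none lower, against 36 higher (34.0%) and 2 lower (1.89%) of all 106 ASVs tested.

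Lactobacillus ASVs were divided among mice and sites. ASV_002, the most abundant, was at 0.534%, 11.4%, 0, 7.66%, 0 and 0 in the LI of mice 1 to 6, against 29.7%, 14.2%, 0.0817%, 5.22%, 0 and 1.81% in their SI. It made up most of the genus in mice 1, 2 and 4, and mouse 4 had more of it in LI (edgeR adjusted p = 0.126). ASV_011 was at 0.147% to 0.544% in LI and at 0 to 26.4% in SI, the highest in mouse 6 (adjusted p = 0.161). ASV_039 had no count in LI and was at 0, 0, 0.317%, 0.511%, 0.322% and 5.58% in the SI of mice 1 to 6. Pooled over the mice, ASV_039 was at least 672-fold higher in SI than in LI, a bound to which mouse 6 gave most of the counts. It was called lower in LI (adjusted p = 0.0208). The other ASV called lower was ASV_163 of the Lachnospiraceae, with 0.0191% in the LI of mouse 2 alone and up to 0.120% in SI (log2 fold change -5.40 ± 1.37, adjusted p = 0.0203). Neither of these 2 ASVs was called in the exact paired test, unadjusted, or by edgeR without mouse 3 or mouse 6.

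Allobaculum and Bifidobacterium were close to a single ASV each. ASV_001 held 37.6% of the LI counts and 47.2% of the SI counts on average, nearly the whole of Allobaculum (edgeR adjusted p = 0.168), and the next ASVs of the genus, ASV_242 and ASV_378, reached at most 0.160% and 0.378% in a library. ASV_003, Bifidobacterium pseudolongum, averaged 9.09% in LI and 12.7% in SI (adjusted p = 0.168). ASV_356 and ASV_393 of that genus had counts in 1 LI library each, at 0.407% and 0.389%, and in no SI library.

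The site difference of WT-ND mice was then set against that of each other group, with a test of the difference itself in a fit of all 56 libraries. The 3 comparisons share the WT-ND libraries. Of 45 genera tested, 4 differed from KO-WD mice (8.89%), and none differed from WT-WD or KO-ND mice (0.0% each, with 2 and 7 at an unadjusted p under 0.05). Of the 45, 6 had no count in WT-ND mice and others had none in the group compared, and these have no pair of site differences to compare. Genera with counts in both groups numbered 36 against WT-WD, 35 against KO-ND and 37 against KO-WD mice. Some of these, such as Anaerotruncus and Dehalobacterium, had no SI count in any group, and their tests could not call a difference. The genera that did not differ include such tests. The 4 were S24-7, unnamed Clostridiales, unnamed Lachnospiraceae and Ruminococcus, and in each the log2 fold change of LI over SI was smaller in WT-ND than in KO-WD mice.

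S24-7 held 15.1 ± 5.36% in LI and 4.38 ± 4.74% in SI of WT-ND mice, and 5.01 ± 3.83% in LI and 0.0166 ± 0.0371% in SI of KO-WD mice, of which 2 of 8 SI libraries had a count. The log2 fold changes were 2.32 and 10.37, a difference of -8.06 ± 1.34 (SE, edgeR adjusted p = 1.17e-07). In WT-WD and KO-ND mice they were 4.71 and 5.13, and these did not differ from WT-ND after adjustment (adjusted p = 0.940 and 0.242). Unnamed Clostridiales averaged 3.65% in LI and 0.321% in SI of WT-ND mice, and 2.78% in LI and 0.00359% in SI of KO-WD mice (difference -7.60 ± 1.58, adjusted p = 3.85e-05). Unnamed Lachnospiraceae averaged 5.27% and 0.981% in LI and SI of WT-ND mice, and 4.87% and 0.141% in LI and SI of KO-WD mice (difference -5.71 ± 1.37, adjusted p = 0.000486). Ruminococcus averaged 0.977% and 0.549% in LI and SI of WT-ND mice, and 2.15% and 0.0110% in LI and SI of KO-WD mice (difference -6.89 ± 2.35, adjusted p = 0.0381), and this call was lost without WT-ND mouse 2, 3, 5 or 6 (adjusted p 0.136 to 0.216). In all 4 the SI libraries of KO-WD mice were mostly at or near 0, with counts in 1 to 4 of 8 libraries, and fitted differences against values this close to 0 depend on the small count that the fit adds. Without the block, 8 genera differed from KO-WD mice, 3 of the 4 among them but not unnamed Lachnospiraceae (adjusted p = 0.253), and 3 from KO-ND mice.

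Lactobacillus was lower in LI than in SI in all 28 mice of the 4 groups. Its log2 fold change was -2.86 in WT-ND, -2.40 in WT-WD, -1.20 in KO-ND and -1.52 in KO-WD mice, and those of WT-ND and the other groups did not differ after adjustment (adjusted p = 1, 0.267 and 0.263, in that order of groups). Oscillospira was higher in LI in all 28 mice, with a log2 fold change of 5.53 in WT-ND, 5.23 in WT-WD, 7.72 in KO-ND and 9.26 in KO-WD mice (adjusted p of the difference = 1, 0.621 and 0.147).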

How the data were processed

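Libraries were grouped by their labels (LI and SI of WT-ND mice, n = 6 each). The authors amplified the V3-V4 region of the 16S gene, selected reads by primer with FASTX-Toolkit 0.0.14, trimmed reads with Sickle 1.33 (quality 20, 130 bases), merged pairs with FLASH 1.2.11, denoised with DADA2 in QIIME 2 2021.4 and named ASVs against Greengenes 13_8. The deposited table holds raw ASV counts, whole numbers with no normalization. The lowest count other than 0 was 2, so single reads may be missing and richness is a lower bound. PCR reads are not independent molecules.

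Counts were summed by lineage. In edgeR 4.0.16 (R 4.3.3), taxa averaging 0.01% or more of the counts over the 12 libraries and present in at least 4 were tested with library totals as the scaling and the mouse as a block. Differences of the site effect between groups were tested in 1 fit of all 56 libraries. The SE is the log2 fold change divided by the square root of F. Shannon index, evenness, richness and distances were means over 100 seeded draws of 27237 counts, and sign-flip and distance tests enumerated all 64 sign patterns of 6 mice. The Firmicutes to Bacteroidetes ratio was tested on the log2 scale. The edgeR test was tried on simulated counts with about as many taxa raised as lowered, unlike the calls here. That trial does not vouch for calls that depend on the scaling. The sign-flip and distance tests were also tried on simulated data. The rest was computed with matplotlib 3.10.9, pandas 2.3.3, scipy 1.17.1 and numpy 2.4.6 under Python 3.11.15.

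The labels number the libraries of each site but do not say that a number is a mouse. The deviations of same-numbered LI and SI libraries from their site means correlated by 0.357 to 0.735, each above 0.1. Those of different numbers correlated by -0.616 to 0.480, so the ranges overlapped. Both libraries of mouse 4, and the LI library of mouse 6, correlated most with a library of another number. The numbers were used as pairs, which these values do not settle. The groups, tests and lists of taxa were chosen with earlier results of these data known. Taxa named were every tested phylum, families and genera of at least 1% in a site, the 10 called genera with the largest changes, the 3 largest ASVs of Allobaculum, Lactobacillus, S24-7 and Bifidobacterium and the 5 called ASVs with the largest changes each way. The other called genera and members of the lists are named besides. The alternatives were TMM factors, DESeq2 1.42.0, limma 3.58.1 on centred log ratios (0.5 added), no filter, a filter at 0.1%, counts rarefied once, no block, exact paired tests and each mouse left out in turn.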

Additional observations from a re-analysis of the deposited data

Results flagged for a closer look

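A library far from the others of its site was found in 10 of 52 groups of 6 examined. Chance gives about 1 in 20 for independent, normally distributed values, and these are neither, since a taxon with counts in 1 of 6 libraries is always found this way and S24-7 and Bacteroidetes share their counts. In the 10 groups the gap to the nearest library was more than 0.625 of the range of the group. Mouse 4 had 13.4% Bacteroidetes in SI, all of it S24-7 (13.4% of the counts), against 0.783% to 5.15% and 0.783% to 5.07% in the SI of the other 5 mice. The LI of mouse 4 also had 8.73% unnamed Clostridiales, against 2.09% to 4.25%, and 0.628% Bacteroides, against 0.0599% to 0.230%. The LI of mouse 5 had 2.27% Verrucomicrobia, against 0 to 0.668%. Clostridium of the Clostridiaceae was at 8.50% in the LI of mouse 1, against 0 to 2.35% in the others, and at 2.94% in its SI, against 0 to 0.892%. In SI, unnamed Rikenellaceae had counts in mouse 2 alone (0.0798%), Bacteroides in mouse 3 alone (0.0131%), and Coprococcus was at 0.0423% in mouse 5, against 0 to 0.00998%.

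The site difference of 4 genera was different in WT-ND and KO-WD mice by the test of the difference itself. The log2 fold change of LI over SI, WT-ND minus KO-WD, was -8.06 for unnamed S24-7, -7.60 for unnamed Clostridiales, -5.71 for unnamed Lachnospiraceae and -6.89 for Ruminococcus (edgeR's quasi-likelihood test, adjusted p at most 0.0381). As given above, the Ruminococcus call was lost with any of several WT-ND mice left out, and that of unnamed Lachnospiraceae without the block. The size of all 4 differences depends on very small SI shares in KO-WD mice.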

How the results depend on the processing

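The numbers of taxa called higher in LI were within 1.5 times of those given above at every rank but ASVs and orders under the alternatives that kept all 6 mice, while the numbers called lower moved with the scaling. Library totals gave 0 phyla, 1 class, 2 orders, 0 families, 1 genus and 2 ASVs lower in LI. Centred log ratios gave 2 phyla, 4 classes, 6 families, 9 genera and 17 ASVs lower and 10 ASVs higher. DESeq2 gave 1 phylum, 2 classes, 0 orders, 5 families and 4 genera lower, and 0 orders and 14 ASVs higher (at an unadjusted p under 0.05, 2 orders were higher and 1 lower). TMM factors gave 5 ASVs lower. Without a filter, 1 order, 1 family and 1 ASV were lower and 2 ASVs higher, and with the filter at 0.1%, 1 order, 1 family and 1 ASV were lower and 6 ASVs higher. Exact paired tests, unadjusted, gave 2 classes, 2 families and 2 genera lower and 15 ASVs higher. Without the mouse as a block, 1 order and 0 genera were lower (0 genera at an unadjusted p under 0.05 too), and the site difference of WT-ND mice differed from that of KO-ND mice for 3 genera and from that of KO-WD mice for 8. The causes were not tested, except that the scalings move the median genus as given above.

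With each mouse left out in turn, the calls were 0 to 1 phyla higher and 0 to 1 lower, 1 to 3 classes lower, 1 to 3 orders lower, 0 to 1 families lower, 7 to 13 genera higher and 0 to 1 lower, 0 to 38 ASVs higher and 0 to 4 lower. Genera fell to 7 higher and 0 lower without mouse 6, and 7 of the 13 called genera were called whichever mouse was left out. The site difference against KO-ND mice was called for 0 to 1 genera. With 5 mice the exact p cannot go under 0.0625, and it was 0.0625 in each such test. The difference of LI minus SI was then 1.29 to 1.54 bits in Shannon index, 0.0908 to 0.118 in evenness, 73.0 to 84.8 ASVs in richness and -3.0 to -2.01 in the log2 ratio of Firmicutes to Bacteroidetes, and site took up 18.5% to 25.7% of Bray–Curtis and 26.9% to 28.7% of Jaccard distances.

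Some changes turned sign. With centred log ratios the log2 fold change was -0.39 for Lachnospiraceae, -1.40 for Clostridiaceae, -0.46 for SMB53, -0.28 for ASV_242 and -0.69 for ASV_019. [Ruminococcus] had 0.31 above, and -0.055 with TMM factors, -0.61 with DESeq2, -1.73 with centred log ratios, -0.53 without the block, -0.562 percentage points in the exact paired test and -0.35 to 0.89 with a mouse left out. Clostridium of the Clostridiaceae had -0.19 above, and 1.57 without the block, 1.45 percentage points in the exact paired test and -1.64 to 0.91 with a mouse left out. At the depth of these libraries (a median of 30196 counts in SI), a taxon without a count in any library of a site is limited only to the shares given above.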
